A study of Homo sapiens with 3 samples.

Results

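The loci of 41 genes that build integrin adhesions and the actin cytoskeleton were described by the p300/CBP peaks listed around them in MDA-MB-231 cells. A peak was counted when its centre lay within 100 kb of the annotated transcription start site (TSS) of a member gene on hg19. All 41 genes were found among 20163 protein-coding genes, and no peak was counted for more than 1 of them. Their loci held 561 of 82901 siCTL peaks and 358 of 39320 siFra-1 peaks.

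MDA-MB-231 is an established human breast cancer line, labelled as triple negative and basal b, in which the AP-1 protein Fra-1 is abundant. Its cells were transfected at 4.5 nM with a control siRNA (siCTL) or with 3 pooled siRNAs that target Fra-1 (siFra-1). Fixation followed after 72 h, with 1% paraformaldehyde for 7 min, before chromatin was immunoprecipitated with 1 antibody to p300/CBP. The comparison asked whether the amount of Fra-1 bears on where these acetyltransferases are found. Each condition was 1 library made from pooled replicate immunoprecipitations, there were no replicates, and differences between conditions could not be tested. The amount of Fra-1 left in the siFra-1 cells is not measured by the peak lists, and the input library was not analysed here.

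Integrins are pairs of an alpha and a beta subunit that span the plasma membrane and hold the extracellular matrix on the outside. Inside the cell, talins and kindlins bind the beta tail, vinculin and other adaptors tie the complex to actin filaments, and the kinases FAK and Src signal from it. Alpha-actinins, filamin and myosin II crosslink and pull the filaments, and formins drive their assembly. Migrating carcinoma cells depend on this machinery, and p300 and CBP acetylate histones at active enhancers and promoters.

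The lists give the start and end of each peak, in steps of 50 bp, and no height. A peak is a stretch in which the scaled and background-subtracted signal passed 1 threshold, so its width says how long that stretch is. Peaks of 250 bp and over are called wide here, and they made up 4.41% of all siCTL and 15.2% of all siFra-1 peaks. Read depth is unknown. All intervals are 95% intervals, and they cover counting error over peaks alone.

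The widest peaks near the members show what these sites look like, and the central 200 bp of 7 of them is printed in the plus strand of hg19. Capitals mark a match, on either strand, to AP-1 (TGAGTCA or TGACTCA), to the TEAD core GGAATG, to the RUNX core TGTGGT or to a CArG box, the element bound by serum response factor. Distances run from the TSS of the gene record to the peak centre in the gene's direction. At 5 members (BCAR1, CDC42EP3, ITGB1, ITGB5 and RND3) the canonical transcript starts over 10 kb from that TSS, with 66.8 kb at CDC42EP3. Distances at these genes hold for the gene record alone. From the canonical start, the CDC42EP3 peak printed below lies upstream. The 4 widest siCTL peaks that a siFra-1 peak overlapped lay at ITGA3 (1100 bp in siCTL and 1300 bp in siFra-1), ACTN4 (900 and 750 bp), ITGB5 (800 and 900 bp) and MYH9 (750 and 750 bp). The ITGA3 peak lay between genes and the others in introns of their genes.
ITGA3, 27.7 kb upstream, chr17:48105502-48105701: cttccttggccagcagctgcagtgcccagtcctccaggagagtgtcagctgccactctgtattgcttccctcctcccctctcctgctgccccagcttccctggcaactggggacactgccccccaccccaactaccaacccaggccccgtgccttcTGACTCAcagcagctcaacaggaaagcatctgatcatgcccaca
ACTN4, 46.1 kb downstream, chr19:39184302-39184501: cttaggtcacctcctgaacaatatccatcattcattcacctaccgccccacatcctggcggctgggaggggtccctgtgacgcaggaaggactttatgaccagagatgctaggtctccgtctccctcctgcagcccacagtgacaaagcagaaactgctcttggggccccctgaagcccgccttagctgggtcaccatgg
ITGB5, 22.5 kb downstream, chr3:124597702-124597901: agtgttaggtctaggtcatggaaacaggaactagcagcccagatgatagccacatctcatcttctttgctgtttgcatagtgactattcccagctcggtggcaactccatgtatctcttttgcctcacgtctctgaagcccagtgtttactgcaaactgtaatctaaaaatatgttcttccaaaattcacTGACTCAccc
MYH9, 58.4 kb downstream, chr22:36725577-36725776: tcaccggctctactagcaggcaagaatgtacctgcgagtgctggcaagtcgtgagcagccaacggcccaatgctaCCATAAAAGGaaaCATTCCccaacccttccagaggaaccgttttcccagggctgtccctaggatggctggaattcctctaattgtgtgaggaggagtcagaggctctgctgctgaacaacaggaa

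The ITGA3 and ITGB5 centres each held 1 AP-1 match, the MYH9 centre held a CArG box and a TEAD match, and the ACTN4 centre held none of the 4. The 3 widest siCTL peaks with no siFra-1 overlap were much shorter, with 300 bp at CDC42EP3 and 250 bp at CD44 and TLN2. A peak between genes near TPM1 was also 250 bp wide, and ties were taken in genome order. The 3 lay in introns of these genes. The centre of the CDC42EP3 peak, printed here, held a CArG box.
CDC42EP3, 49.2 kb downstream, chr2:37916352-37916551: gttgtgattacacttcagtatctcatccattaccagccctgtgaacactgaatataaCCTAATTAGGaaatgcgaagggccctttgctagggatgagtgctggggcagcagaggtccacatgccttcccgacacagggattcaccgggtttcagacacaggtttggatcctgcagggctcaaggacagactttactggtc

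The 3 widest siFra-1 peaks with no siCTL overlap were 550 bp wide at ITGB6 and MYH9 and 500 bp wide at PARVA, tied with a peak of 500 bp at ACTN1. The ITGB6 peak lay within an intron of an annotated lncRNA gene upstream of ITGB6, the MYH9 peak in an intron of MYH9 and the PARVA peak between genes. The printed ITGB6 centre held 2 TEAD matches and 1 RUNX match, and the MYH9 centre held none.
ITGB6, 21.5 kb upstream, chr2:161078227-161078426: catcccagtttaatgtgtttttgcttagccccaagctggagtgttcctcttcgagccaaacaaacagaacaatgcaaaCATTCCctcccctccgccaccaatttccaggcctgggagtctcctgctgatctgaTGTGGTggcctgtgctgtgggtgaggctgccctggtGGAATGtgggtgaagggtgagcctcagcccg
MYH9, 36.7 kb downstream, chr22:36747227-36747426: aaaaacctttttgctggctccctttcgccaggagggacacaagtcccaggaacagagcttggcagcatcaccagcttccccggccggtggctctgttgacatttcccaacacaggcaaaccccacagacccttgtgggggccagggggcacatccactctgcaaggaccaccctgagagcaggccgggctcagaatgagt

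Fewer p300/CBP peaks but more wide ones were listed near the adhesion and actin genes in siFra-1 than in siCTL. The siFra-1/siCTL ratio was 0.638 (0.557 to 0.730) over all 561 and 358 peaks, and 1.55 (1.13 to 2.14) over the 67 siCTL and 104 siFra-1 peaks that were wide. The ratio was below 1 for peaks under 250 bp and above 1 for wider ones. Peaks of 100 bp numbered 390 and 206 in these lists, with a ratio of 0.528 (0.444 to 0.627), and those of 150 and 200 bp numbered 104 and 48, with a ratio of 0.462 (0.321 to 0.656). Peaks of 250 to 450 bp numbered 47 and 64, a ratio of 1.36 (0.920 to 2.03) whose interval includes 1, and peaks of 500 bp and over 20 and 40, a ratio of 2 (1.14 to 3.61). Peaks covered 84.15 kb (siCTL) and 75.9 kb (siFra-1) of the members' windows, and their mean width was 150 and 212 bp. The direction for all peaks turned when the shorter ones were left out, and wide peaks are the measure in which siFra-1 had more.

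**Figure D1:**
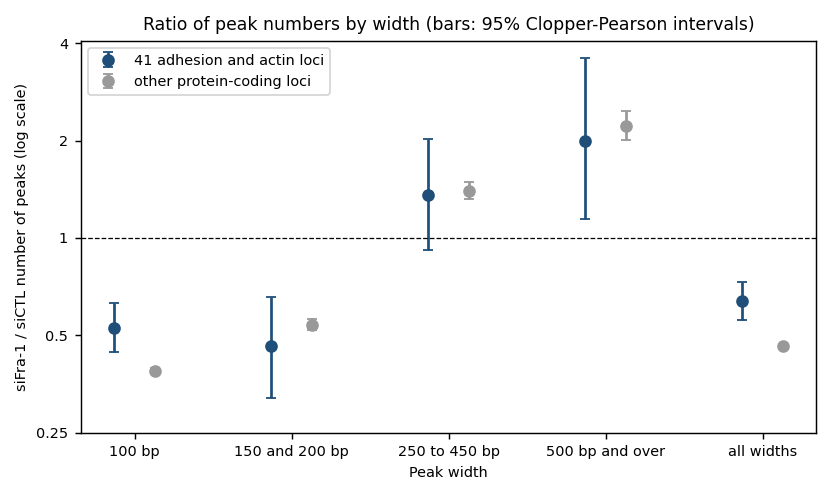
The plot gives the siFra-1/siCTL ratio of peak numbers (log scale) by peak width for the 41 adhesion and actin loci and for all other protein-coding loci, with 95% Clopper-Pearson intervals as bars and equal numbers as a dashed line. At the member loci the ratio is 0.528 for peaks of 100 bp and 2 for peaks of 500 bp and over, and the members lie clearly above the other loci only at 100 bp and over all widths.

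Other protein-coding loci had the same pattern, with a ratio of 0.463 (0.456 to 0.470) for all peaks and 1.59 (1.51 to 1.67) for wide ones. To compare like with like, each member was set against all other protein-coding genes whose number of peaks in both lists together was within 10% (or 1 peak) of its own, between 28 and 3752 genes per member. Such genes gave a ratio of 0.529, and the members' ratio was 1.21 times (1.05 to 1.38) as high. With peaks of at least 150 bp this quotient was 0.989 (0.790 to 1.24), and with a window of 50 kb it was 1.19 (0.998 to 1.41), so the difference lay in the narrowest peaks and was not set apart from counting error in a tighter window. For wide peaks the members' ratio was 1.14 times (0.832 to 1.58) that of the genes of like peak number, an interval that includes 1.

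Where the members stood above other protein-coding loci was in the level of wide peaks in both conditions. They were chosen with earlier results of these data known, and a second list of 104 such genes, given below, also stood above those loci. Of their peaks, 11.9% (9.51 to 14.9) were wide in siCTL and 29.1% (24.6 to 34.0) in siFra-1, against 4.60% and 15.8% at other protein-coding loci. These differences were 7.35 percentage points (4.91 to 10.3) in siCTL and 13.3 (8.78 to 18.2) in siFra-1. Genes of like peak number had 6.86% and 17.6%. Their mean numbers, summed over the members, were 40.6 wide of 592 siCTL peaks and 55.2 wide of 313 siFra-1 peaks. The members had 67 wide of 561 and 104 wide of 358, so the totals behind these counts differ.

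Member peaks were also found in both lists more often. A siFra-1 peak overlapped 125 siCTL peaks (22.3%, 19.0 to 25.9), and a siCTL peak overlapped 117 siFra-1 peaks (32.7%, 28.0 to 37.7). At other protein-coding loci these shares were 9.28% and 19.1%, lower by 13.0 percentage points (9.75 to 16.6) and 13.6 (8.91 to 18.6), and at genes of like peak number 13.7% and 25.0%. Overlap went with width. Of the wide member peaks, 63 of 67 in siCTL (94.0%) and 79 of 104 in siFra-1 (76.0%) had a partner, against 8.46% and 9.71% of those of 100 bp.

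Gene by gene, 36 members had fewer peaks in siFra-1, 4 had more and ANXA2 had 16 in each. The 4 with more were MYH9, CDC42EP3, TLN2 and ZYX, and each of them had equal or fewer siFra-1 peaks in at least 1 of the windows of 50 and 250 kb. The median was 14 peaks in siCTL and 7 in siFra-1, with a median ratio of 0.65 per gene (0.4 among other protein-coding genes). At least 2-fold fewer siFra-1 peaks were found at 11 of the 34 members with 10 or more peaks in all, or 32.4%, where 58.5% of all protein-coding genes with that many peaks met the rule. These 11 were ACTN1, DIAPH1, FERMT1, FERMT2, FSCN1, ITGB3, S100A10, SRC, TLN1, TPM4 and VCL. At least 2-fold more was found at 0 of 34, against 0.573% of all such genes. Among the 30 members with a wide peak, 20 had more wide peaks in siFra-1 (66.7%, against 49.5% of all genes with a wide peak) and 5 had fewer (16.7%, against 22.9%). None of these backgrounds was matched for peak number, with which the ratio itself changes. Genes of like peak number had a ratio of 0.349 for ZYX, with 3 peaks, and of 0.751 for ACTN4, with 64. Matched in this way, the contrast over all peaks was 0.638 at the members against 0.529. Intervals of single genes are broad, and that of the ratio lay below 1 for FSCN1, S100A10, FERMT1, FERMT2 and DIAPH3 and above 1 for none.

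**Figure D2:**
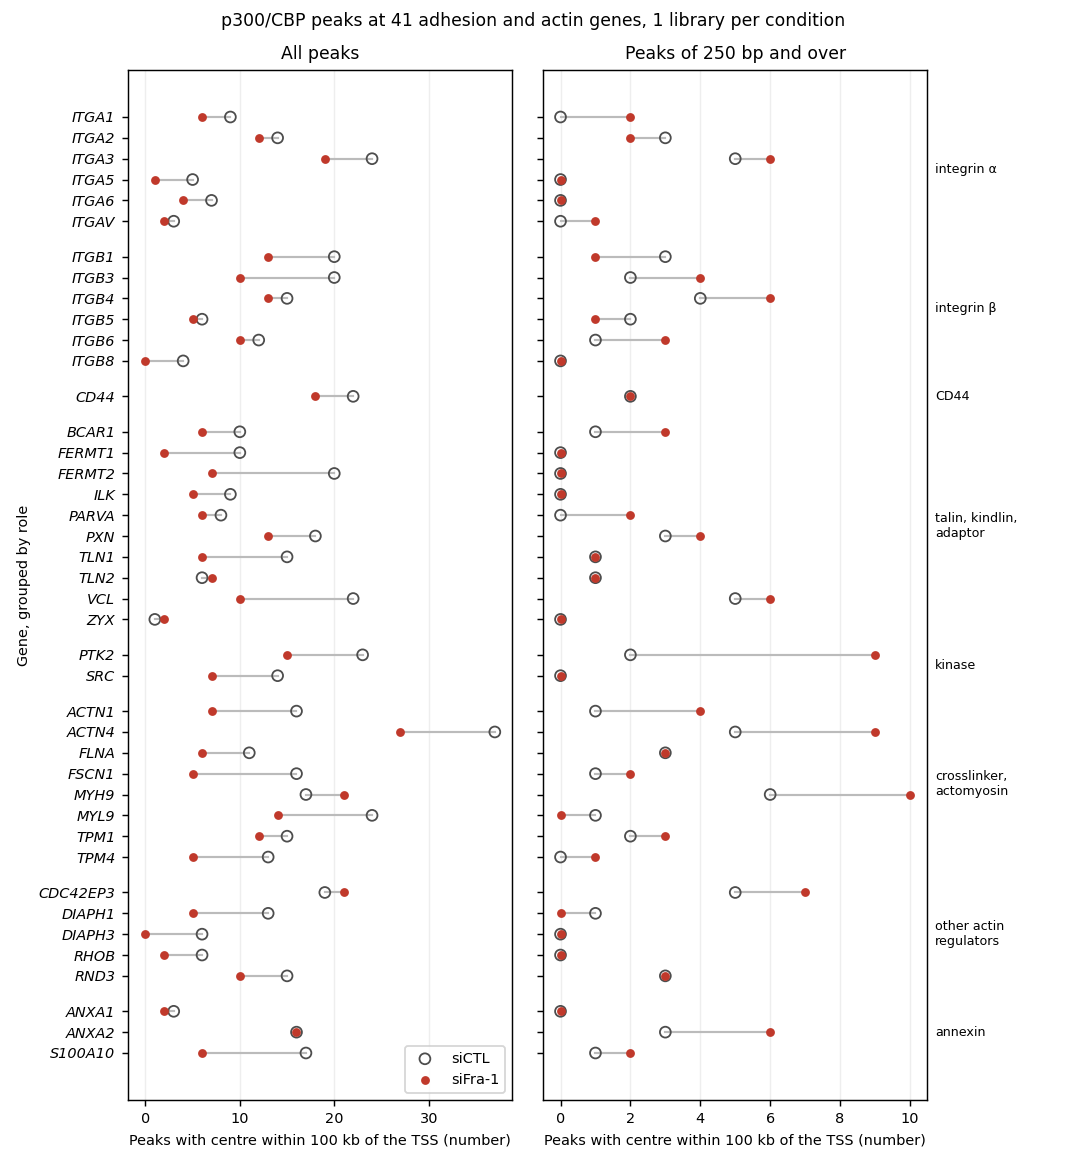
Each row is 1 of the 41 genes, grouped by role, and the points give its number of peaks within 100 kb of the TSS in siCTL (open) and siFra-1 (filled), for all widths on the left and for peaks of 250 bp and over on the right. On the left the filled points lie to the left of the open ones for 36 genes, and on the right they lie to the right for 20, with the widest gap at PTK2 (2 and 9).

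Among the receptors, the 6 integrin alpha genes had 62 siCTL and 44 siFra-1 peaks at a ratio of 0.710 (0.471 to 1.06), of which 8 and 11 were wide. All 6 had fewer peaks in siFra-1. ITGA3, which pairs with beta 1 in a laminin receptor, had the most, with 24 and 19 peaks, 5 and 6 of them wide. Its wide peaks in siCTL lay within 30 kb of the TSS, and all 5 had a wide partner in siFra-1. The partners were wider at 4 of these sites, as at 6.44 kb downstream, where 350 bp in siCTL stood against 800 bp in siFra-1. ITGA2, a collagen receptor subunit, had 14 and 12 peaks and is the alpha gene with fewer wide peaks in siFra-1 (3 and 2). At 30.2 kb downstream its siCTL peak was 400 bp wide and its siFra-1 peak 100 bp. ITGA1, the alpha subunit of another collagen receptor, lies next to ITGA2 and had 9 and 6 peaks, with wide ones only in siFra-1, at 4.32 and 3.05 kb upstream. ITGA5, of the fibronectin receptor, had 5 and 1 peaks. ITGAV, whose product binds vitronectin and other ligands, had 3 and 2, with 1 wide in siFra-1. These loci held far fewer peaks than ITGA3. ITGA6, a laminin receptor subunit, had 7 and 4, and neither ITGA5 nor ITGA6 had a wide peak in any list.

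The 6 integrin beta genes had 77 siCTL and 51 siFra-1 peaks at a ratio of 0.662 (0.456 to 0.956), and 12 and 15 of them were wide. ITGB1, the beta subunit most alpha subunits share, had 20 and 13 peaks and, like ITGB5, fewer wide ones in siFra-1, with 3 and 1. The 450 bp siCTL peak that spans the TSS of its gene record was 150 bp in siFra-1. The ITGB1 canonical transcript starts 47.6 kb from that TSS, so this peak does not lie at its start. A 500 bp siCTL peak 25.1 kb downstream was 200 bp in siFra-1, while one 4.66 kb upstream was 250 bp in siCTL and 650 bp in siFra-1. ITGB3, which pairs with alpha V, had 20 and 10 peaks but 2 and 4 wide ones. At 52.0 kb downstream its peak measured 250 bp in siCTL and 850 bp in siFra-1. ITGB4, the hemidesmosome subunit, had 15 and 13 peaks, 4 and 6 of them wide, and all its wide peaks lay between 14.0 and 41.4 kb upstream. Each of its 4 wide siCTL peaks had a wide siFra-1 partner of equal or larger width, as at 27.8 kb upstream with 250 and 650 bp. ITGB5 had 6 and 5 peaks, 2 and 1 of them wide. ITGB6, an epithelial partner of alpha V, had 12 and 10, with 1 and 3 wide, and ITGB8 had 4 in siCTL and none in siFra-1. CD44, the hyaluronan receptor, had 22 and 18 peaks with 2 wide ones in each list, of which that at 55.1 kb upstream was common to both with 400 and 650 bp.

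The 10 genes of talins, kindlins and adaptors had the lowest ratio of the 8 groups, 0.538 (0.391 to 0.735), with 119 siCTL and 64 siFra-1 peaks, of which 11 and 17 were wide. That interval holds the ratio of every other group but CD44 (0.818). It also holds the 0.529 of genes of like peak number, so the rank does not set this group apart. VCL, which encodes vinculin, had 22 and 10 peaks in all but 5 and 6 wide ones. The 5 wide siCTL peaks in its window each had a wide siFra-1 partner that differed by 50 to 150 bp, so the fewer peaks in this window were narrow ones. Those at 86.0, 88.3 and 95.7 kb upstream lay near the window's edge. The window holds 1 other protein-coding TSS, and these peaks may belong to that gene. PXN, which encodes the scaffold paxillin, had 18 and 13 peaks with 3 and 4 wide ones. BCAR1, which encodes the docking protein p130Cas, had 10 and 6 with 1 and 3 wide. TLN1, which encodes talin, had 15 and 6 peaks and 1 wide site, 3.84 kb downstream, of 600 bp in siCTL and 400 bp in siFra-1. Its paralog TLN2 had 6 and 7. The kindlin genes had no wide peak at all, with 10 and 2 peaks at FERMT1 and 20 and 7 at FERMT2. PARVA and ILK, whose products form 1 complex, had 8 and 6 and 9 and 5 peaks, wide only at PARVA and only in siFra-1 (2 peaks). ZYX, a zyxin gene with very few peaks, had 1 and 2.

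PTK2, which encodes FAK, had the largest gain in wide peaks of the 41. Its locus held 23 siCTL and 15 siFra-1 peaks, but 2 wide ones in siCTL and 9 in siFra-1. The ratio of wide peaks was 4.5 with an interval of 0.931 to 42.8, which includes 1. The 9 sites lay from 0.137 to 73.9 kb upstream, and 2 of them were wide in both lists. The widest measured 100 bp in siCTL and 900 bp in siFra-1 and lay 16.6 kb upstream. No other protein-coding TSS falls in its window. SRC, the partner kinase, had 14 and 7 peaks and no wide one in either list.

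The 8 genes of actin crosslinkers and actomyosin had 149 siCTL and 97 siFra-1 peaks at a ratio of 0.651 (0.499 to 0.846), and more wide peaks than any other group, 19 and 32. MYH9, the heavy chain of non-muscle myosin IIA, was 1 of the few loci with more peaks of both kinds in siFra-1, with 17 and 21 in all and 6 and 10 wide. Its wide sites formed groups, one between 56.6 and 59.2 kb downstream in the body of the gene and one between 64.0 and 80.2 kb upstream. In the upstream group 1 of the 3 sites was wide in siCTL and all 3 in siFra-1, and the widest was 350 bp in siCTL and 800 bp in siFra-1. ACTN4, which encodes alpha-actinin 4, had the most peaks of all members, 37 and 27, with 5 and 9 wide. Like MYH9 it had both sites that were wider in siCTL (500 and 200 bp at 10.3 kb downstream) and sites that were wider in siFra-1 (100 and 500 bp at 72.7 kb downstream). ACTN1, the other non-muscle alpha-actinin, had 16 and 7 peaks but 1 and 4 wide ones. FLNA, which encodes filamin A, had 11 and 6 peaks and the same number of wide ones in each list (3), at sites with widths that differed by at most 100 bp. FSCN1, which encodes the filopodial bundler fascin, had 16 and 5 peaks and 1 and 2 wide ones. TPM1 had 15 and 12 peaks and TPM4 13 and 5, and both of these tropomyosin genes had 1 more wide peak in siFra-1. MYL9, a myosin light chain gene, had 24 and 14 peaks and 1 wide one in siCTL, at a site that measured 350 bp in siCTL and 100 bp in siFra-1.

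The 5 regulators CDC42EP3, RND3, DIAPH1, DIAPH3 and RHOB had 59 siCTL and 38 siFra-1 peaks at a ratio of 0.644 (0.417 to 0.985), with 9 and 10 wide. CDC42EP3, an effector of the GTPase CDC42, held most of the wide ones (5 and 7) and had 19 and 21 peaks in all. Its site 30.3 kb upstream measured 550 bp in siCTL and 950 bp in siFra-1. RND3 had 15 and 10 peaks with 3 wide in each list, and its 2 sites that were wide in both were narrower in siFra-1. The formin genes differed from these. DIAPH1 had 13 and 5 peaks and 1 wide peak in siCTL alone, and DIAPH3 had 6 and 0. RHOB had 6 and 2, none of them wide. The annexin group had 36 and 24 peaks, a ratio of 0.667 (0.380 to 1.15). ANXA2 had 16 in each list but 3 and 6 wide ones, whereas S100A10, whose product binds annexin A2, had 17 and 6 with 1 and 2 wide, and ANXA1 had 3 and 2.

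The wide peaks of both lists fell on 119 sites at 30 genes when overlapping peaks were joined. Of these sites, 51 at 23 genes were wide in both lists, 27 were wide in siFra-1 and narrow in siCTL, 25 were wide in siFra-1 with no siCTL peak, 12 were wide in siCTL and narrow in siFra-1, and 4 were wide in siCTL with no siFra-1 peak. The sites with a peak in both lists numbered 90. The siFra-1 peak was the wider at 57 of them, the siCTL peak at 28, and 5 were equal, with a median difference of 100 bp. Among the 51 wide in both, 30 were wider and 16 narrower in siFra-1, with a median of 50 bp, and in the whole lists 62.5% of 2511 such pairs were wider and 22.9% narrower, also with a median of 50 bp. The share wider in siFra-1 was thus 58.8% at the member sites, not above that of the whole lists. The 25 sites seen only in siFra-1 were spread over 18 genes, with 3 at ANXA2 and no more than 2 at any other member.

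**Figure D3:**
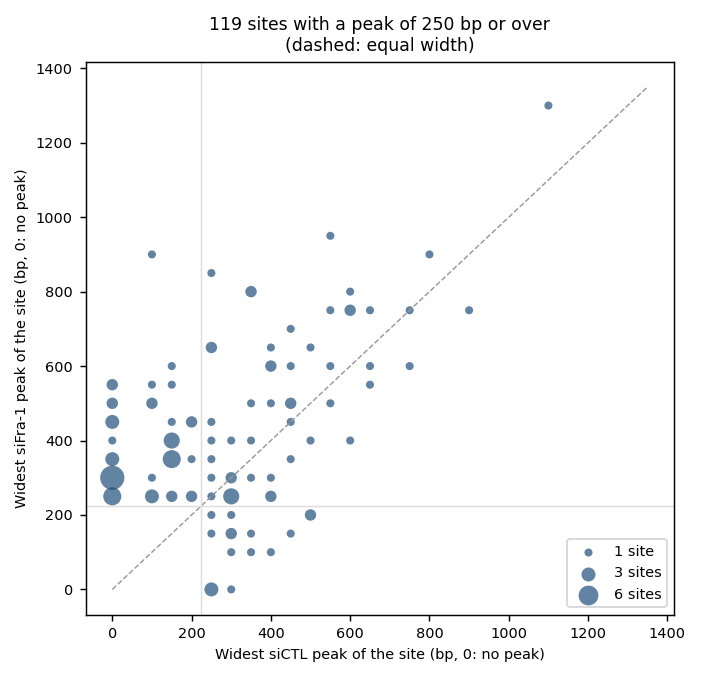
Each point gives the width in bp of the widest siCTL (x axis) and siFra-1 (y axis) peak at 119 sites with a peak of 250 bp or over, its area gives the number of sites at that place, and the thin lines mark the limit of wide peaks. The points above the dashed line of equal width outnumber those below it, and the 25 sites on the y axis had no siCTL peak.

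The wide peaks lay mostly away from the TSS. The median siCTL and siFra-1 distances were 29.7 and 28.2 kb, against 39.4 and 36.2 kb for all member peaks, and 44.8% and 48.1% of them were upstream. Introns held 67.2% of the wide siCTL and 61.5% of the wide siFra-1 peaks. Exons held 14.8% (12.1 to 18.0) of all member peaks in siCTL and 11.5% (8.56 to 15.2) in siFra-1, against 7.54% and 7.67% in the whole lists. The whole lists also hold peaks far from any protein-coding TSS. The exon share at other protein-coding loci was not computed, so this contrast does not set the members apart. The member was the nearest protein-coding TSS for 79.1% of the wide siCTL and 73.1% of the wide siFra-1 peaks. The windows hold from 0 to 16 other protein-coding TSSs, so a peak counted here may belong to a neighbouring gene.

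**Figure D4:**
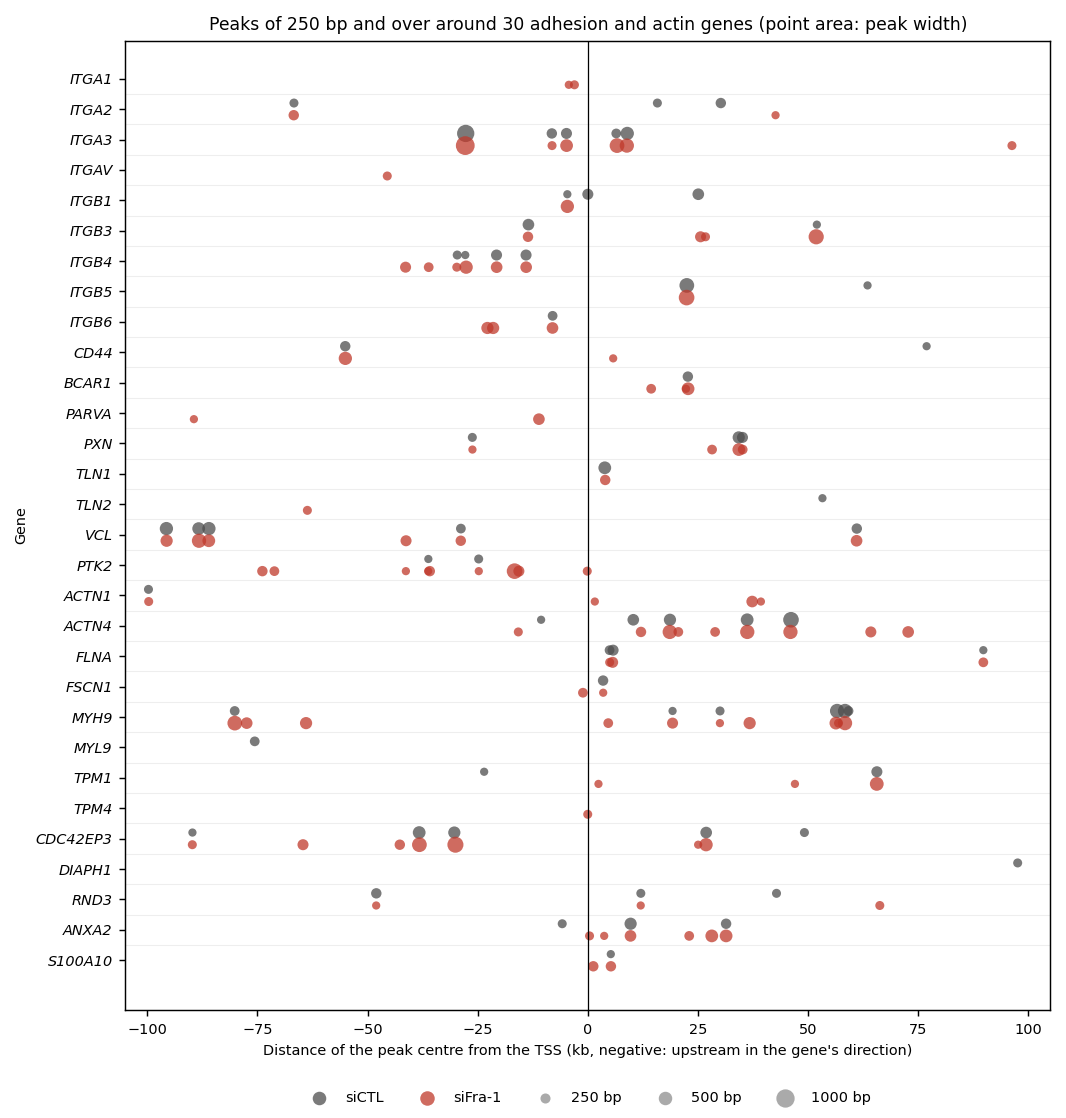
Each row is 1 of the 30 genes with a wide peak, and each point is a siCTL (grey, upper) or siFra-1 (red, lower) peak of 250 bp and over, placed by the distance of its centre from the TSS in kb, with an area that gives its width. Paired points mark sites wide in both lists, as at ITGA3 and VCL, and red points with no grey one above them are frequent at PTK2, where 9 siFra-1 and 2 siCTL peaks are drawn.

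At promoters, taken as 3 kb centred on the TSS, 12 members had a peak in siCTL (29.3%, against 15.9% of other protein-coding genes) and 13 in siFra-1 (31.7%, against 9.15%). Most of these peaks were narrow. By the TSS of the gene record, only ITGB1 had a wide promoter peak in siCTL. In siFra-1 the members with one were ACTN1 (250 bp), ANXA2 (300 bp), FSCN1 (350 bp), PTK2 (300 bp), S100A10 (400 bp) and TPM4 (300 bp), or 14.6% against 1.28% of other protein-coding genes. At ANXA2 and TPM4 no siCTL peak overlapped them, and at ACTN1, FSCN1, PTK2 and S100A10 the siCTL peak was 100 to 200 bp wide. The named genes depend on the annotation. The canonical transcript starts 47.6 kb from the TSS used at ITGB1, 9.47 kb at TPM4 and 4.90 kb at ANXA2. The wide peaks given for these genes lie outside a 3 kb window centred on that start. At ANXA2 another siFra-1 peak, of 250 bp and with no siCTL peak, lies inside the window at the canonical start. These are small numbers from 1 library each, and windows of 1 and 5 kb gave 6 and 18 members in siCTL and 6 and 16 in siFra-1. The other genes were not matched for peak number here, and their median was 2 siFra-1 peaks within 100 kb against 7 at the members.

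AP-1, the heterodimer that Fra-1 forms with a Jun protein, has a consensus that was found in the central 200 bp of 27 of 67 wide siCTL member peaks (40.3%, 29.4 to 52.3) and of 25 of 104 wide siFra-1 member peaks (24.0%, 16.8 to 33.1). Wide peaks elsewhere had 31.7% and 22.9%, and the differences of 8.55 (-2.46 to 20.6) and 1.15 (-6.13 to 10.3) percentage points have intervals that include 0. Windows moved by 2 kb from the member peaks had 3.73% and 1.92%. The siCTL matches fell at 16 genes, with 4 at ITGA3 and 3 at VCL. In siFra-1 the share went with the siCTL peak at the site. It was 19 of 52 (36.5%) where the siCTL peak was wide, 6 of 27 (22.2%) where it was narrow and 0 of 25 where there was none, a count that allows a share of up to 12% by the limit of 3 counts and of up to 13.3% by the Wilson interval. Elsewhere these shares were 32.3%, 20.5% and 12.7%, and the last of these lies within that interval. Over whole peaks, which gives wide peaks more room, 32 of 67 siCTL member peaks had a match (47.8%, 36.3 to 59.5). In siFra-1 40 of 104 had one (38.5%, 29.7 to 48.1), and these 2 intervals overlap. Wide peaks elsewhere had 41.4% in siCTL and 32.4% in siFra-1. Of the 40, 3 were among the 25 with no siCTL peak, at ITGB3, MYH9 and VCL (12%, against 18.0% elsewhere).

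The CArG box is known from many genes of the actin cytoskeleton, which serum response factor controls. In the central 200 bp it was found in 5 of 67 wide siCTL member peaks (7.46%, 3.23 to 16.3) and 7 of 104 wide siFra-1 member peaks (6.73%, 3.30 to 13.2), against 1.11% and 0.969% of wide peaks elsewhere. The differences were 6.35 (2.10 to 15.2) and 5.76 (2.32 to 12.3) percentage points, the only ones of the 8 computed for 4 motifs in 2 lists whose interval excluded 0. The matches came from 4 genes in each list, with 2 at ACTN4 and 1 each at CDC42EP3, MYH9 and TLN1 in siCTL, and 3 at MYH9, 2 at ACTN4 and 1 each at FLNA and VCL in siFra-1. Peaks of 1 locus are not independent, which these intervals do not take into account. Over whole peaks, the counts were 10 (14.9%, 8.31 to 25.3) and 11 (10.6%, 6.01 to 18.0), against 2.29% and 2.31% elsewhere. Over whole peaks, the genes with a match numbered 8 and were ACTN4, BCAR1, CDC42EP3, FLNA, ITGB1, MYH9, TLN1 and VCL. At the sites of BCAR1, FLNA, TLN1 and VCL the peak was wide with a CArG box in both lists. The same held at MYH9 58.4 kb downstream, where the sequence is printed, and 56.6 kb downstream. It also held at ACTN4 18.6 and 36.2 kb downstream. At ACTN4 the siFra-1 list had 4 wide peaks with a match and the siCTL list 2. Windows moved by 2 kb from the member peaks had 3.73% and 3.37%, against 1.07% and 1.14% for wide peaks elsewhere, so the matches near the members were not limited to the peak centres. The 2 lists share most of these sites and do not count as separate evidence. TEAD matches were found in 20.9% and 27.9% of the wide member peaks (29.6% and 31.1% elsewhere) and RUNX matches in 23.9% and 27.9% (24.2% and 26.7% elsewhere), with all 4 intervals of the differences including 0.

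**Figure D5:**
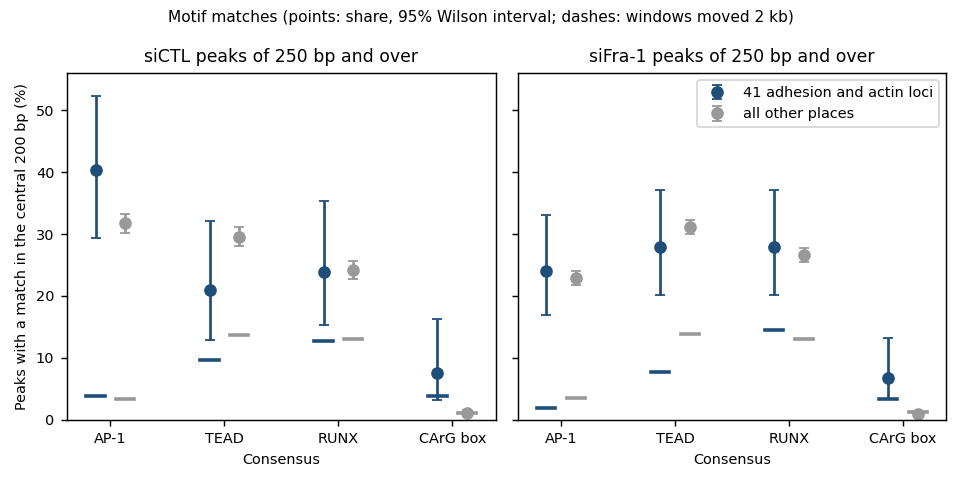
The points give the percent of wide peaks with a match in their central 200 bp, at the 41 member loci and at all other places, in siCTL (left) and siFra-1 (right), with 95% Wilson intervals, and the dashes give the same in windows moved by 2 kb. For the CArG box the members stand at 7.46% and 6.73% and the other places at 1.11% and 0.969%.

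A second list of 104 genes of the same machinery, among them further integrins, tensins, actins and ARP2/3 subunits, was counted in the same way. Their loci held 1040 siCTL and 542 siFra-1 peaks at a ratio of 0.521 (0.469 to 0.579), and 87 and 124 wide ones, a ratio of 1.43 (1.07 to 1.90). In both lists the wide share was above that of other protein-coding loci and below that of the members. Of these genes, 93 had fewer peaks in siFra-1, 3 equal numbers and 8 more. At least 2-fold fewer peaks were found at 28 of the 64 with 10 or more peaks (43.8%, against 58.5% of all protein-coding genes). At least 2-fold more were found at 2 of the 64 (3.1%, against 0.573%). More wide peaks were found at 27 of the 58 with a wide peak (46.6%, against 49.5%), and fewer at 9 (15.5%, against 22.9%). These backgrounds were not matched for peak number. Overlap was found for 16.3% of their siCTL and 29.5% of their siFra-1 peaks, below the 22.3% and 32.7% of the members.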

How the data were processed

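Per the authors' methods and the steps written into the lists' names, reads were aligned to hg19 (BWA-backtrack in the methods, Bowtie2 in the submitters' processing notes), piled up with PASHA in bins of 50 bp, scaled and background-subtracted, and peaks were called with the Integrated Genome Browser at a threshold of 25 with a maximum gap of 50 bp and a minimum run of 50 bp. Scaling and 1 fixed threshold mean that library complexity or enrichment moves peak number and width as occupancy would. The lists also carry a processing value of unstated meaning that is higher for siFra-1. Its part in the results was not tested, and a peak just under the threshold is absent.

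The deposited BED intervals were read as counted from 0, and 1 was added to printed starts. Genes came from GENCODE release 44 lifted to GRCh37. Sharing meant an overlap of at least 1 bp. Counts were made with Python 3.11.15, numpy 2.4.6, pandas 2.3.3, scipy 1.17.1 and pysam 0.24.0, drawn with matplotlib 3.10.9, and the functions were tested on simulated data and against bedtools 2.31.1. Ratios have Clopper-Pearson intervals, shares Wilson intervals and differences Newcombe intervals. Neighbouring peaks are not independent, and no p-value was computed. Exon or intron was read at each centre from the 64449 genes of the annotation.

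The 41 members and all gene lists were chosen with earlier results of these data known. Named by rule were the 10 members with the most wide peaks, the 5 largest falls and 5 largest rises in all peaks, the 3 largest rises and all falls in wide peaks, members with a wide promoter peak, members with no peak in a list, and the 4 widest shared, 3 widest siCTL-only and 3 widest siFra-1-only peaks. The other members were named within their groups. Alternatives were windows of 50 and 250 kb, the TSS of the canonical transcript, a minimum width of 150 or 250 bp, wide from 500 bp, merging within 500 bp, sharing by 50% of each peak or by a gap of up to 200 bp, leaving out ACTN4, comparison genes within 25% or all other genes, promoter windows of 1 and 5 kb, and AP-1 in 400 bp, in the whole peak or as TGANTCA. The input sample was not analysed here, and the central sequence of 3 named peaks is not reported here.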

Additional observations from a re-analysis of the deposited data

How the results depend on the processing

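No paired analysis was possible because each condition was 1 library. Of 69 values under alternatives, 44 stayed within the counting interval or within 1.5 times the count reported. The side of 1 changed for 2 ratios. The ratio of peak numbers was 1.55 from 250 bp and 0.889 from 150 bp, and with at least 150 bp the ratio over that of genes of like peak number was 0.989, where the interval includes 1. Against all other protein-coding genes that quotient was 1.38. The wide share was 9.26% in siCTL with a window of 250 kb and 35.0% in siFra-1 with 50 kb, and from 500 bp it was 3.57% and 11.2%. The overlapped share of siCTL peaks was 27.3% with 50 kb, 17.5% with 250 kb, 49.1% and 76.1% with at least 150 and 250 bp, 13.2% with an overlap of 50% and 28.0% with peaks within 200 bp counted as shared. That of siFra-1 peaks was 27.8% with 250 kb, 54.6% and 50% with at least 150 and 250 bp, 20.7% with an overlap of 50% and 41.6% with peaks within 200 bp counted as shared. With 50 kb, 6 members had at least 2-fold fewer siFra-1 peaks, and from 500 bp 12 members had more wide siFra-1 peaks. AP-1 in siFra-1 was 37.5% in 400 bp and 38.5% in whole peaks. Promoter windows of 1 kb gave 6 members in each list. Narrower windows and stricter widths leave fewer peaks, and a cause was not tested for any of these. Of 156 differences at 26 named genes, 25 took another direction or became equal, among them all peaks at MYH9 (4 fewer in siFra-1 with 250 kb), CDC42EP3, TLN2 and ZYX, so the 4 members with more peaks in siFra-1 depend on the window.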
